A study of Mus musculus with 4 samples.

Results

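The canonical histone genes of mouse are the members of the Hist1, Hist2, Hist3 and Hist4 clusters, and all genes in the deposited gene list whose symbol starts with Hist1h, Hist2h, Hist3h or Hist4 were taken, which gave 42 of 19465 listed genes. They comprise 6 linker H1, 8 H2A, 12 H2B, 8 H3 and 8 H4 genes. The family was chosen by its symbols with rNLS8-against-control values of these same sections in view, so every member value of that contrast is given as a description. Comparisons between brain regions use another contrast, but they include the same rNLS8 sections and were chosen with earlier results of these data known. Spatial gene expression was read from forebrain sections of 5 µm cut from fixed, paraffin-embedded mouse brain. The rNLS8 group had 2 sections and the control group had 2, all from animals of 11 weeks, 3 weeks after doxycycline was withdrawn. In rNLS8 mice, as background, a tTA driver under the neurofilament heavy chain promoter switches on, in neurons and once doxycycline is gone, human TDP-43 that lacks a working nuclear import signal, while the mouse's own TDP-43 gene is kept. The labels do not name the alleles that the control mice carry, and they give the same withdrawal of doxycycline.

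The kept spots held 28055286 and 17627535 unique molecular identifiers (UMI, counted RNA molecules) in rNLS8 sections 1 and 2 and 19006046 and 23853890 in control sections 1 and 2, with section medians of 5364 to 9776 UMI per spot. Levels are CPM, a gene's UMI per 1000000 UMI of the spots that were summed, given for section 1 and then section 2 of a group. The labels do not say that each section came from its own animal, so p-values measure the spread between these sections only. Tardbp, the TDP-43 gene, had 197 and 138 UMI in the rNLS8 sections and 0 and 0 in the control sections, where a count of 0 allows up to 3 UMI. Whether the probes read the mouse Tardbp gene was not given, so these counts do not show that control brains lack its RNA. The 4 Y-linked genes looked up had 137 and 139 CPM in the rNLS8 sections and 0 and 107 in the control sections, although replicate 1 of either group is labelled female, so the library labelled rNLS8 replicate 1 goes against its label. The calls between rNLS8 and control, and the counts of calls between regions, are also given without it. A spot holds several cells, so fewer cells of a type and less RNA per cell cannot be told apart.

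Histones package DNA, with H2A, H2B, H3 and H4 forming the core particle and H1 binding the DNA between particles. Most canonical histone genes are short, lack introns, are transcribed when a cell copies its DNA, and give mRNAs that end in a stem-loop instead of a poly(A) tail. Neurons no longer divide and draw mainly on replication-independent variants made from other genes, whereas the wall of the lateral ventricle holds the dividing progenitors of the adult forebrain. The members sit mostly in 1 large array, with 30 on chromosome 13, 9 on chromosome 3, 2 on chromosome 11 and 1 on chromosome 6 of GRCm38.p6.

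Several members have near-identical copies. RefSeq synonym lists place 21 of the 42 members in 5 groups of genes that are listed as synonyms of each other. Proteins and coding sequences were not compared, so members outside these groups, among them all listed H2A genes, may also have copies. All 8 listed H4 genes fall in 1 such group of 13 genes, while 7 H3 genes (Hist1h3b, Hist1h3c, Hist1h3d, Hist1h3f, Hist2h3b, Hist2h3c1 and Hist2h3c2) fall in another of 8. Hist1h2bc, Hist1h2be and Hist1h2bg share a further group, Hist1h2bf and Hist1h2bj are listed members of a group of 4, and Hist1h3a belongs to another of 4. How far the kit's probes separate such copies was not given, so the split of UMI within a group is uncertain. Hist1h2bc, Hist1h2be and Hist2h2be have annotated spans of 8282, 37455 and 2667 bases, longer than the short, intronless gene usual for the family. RefSeq lists 67 protein-coding genes of the family, and those outside the 42 were not analysed here.

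The start regions of the genes on which the results turn are printed so that the promoters of near-identical copies can be set side by side. RefSeq promoter windows, 250 bases before to 50 after the gene start on GRCm38.p6, were matched by symbol or gene ID for 37 of the 42 members. Capitals mark matches on either strand, anywhere in the window, to CCAAT, to TATAAA, the letters of a TATA box, to the octamer ATTTGCAT or to GGTCCG, a core of the H4 subtype element. Hist1h4i (chr13:22041313-22041612, minus strand) and Hist4h4 (chr6:136804382-136804681, minus strand) give H4, Hist2h3c2 (chr3:96239078-96239377, minus strand), Hist2h3c1 (chr3:96246435-96246734, plus strand) and Hist1h3b (chr13:23752095-23752394, plus strand) give H3, and Hist2h2bb (chr3:96269450-96269749, plus strand) gives an H2B.
Hist1h4i: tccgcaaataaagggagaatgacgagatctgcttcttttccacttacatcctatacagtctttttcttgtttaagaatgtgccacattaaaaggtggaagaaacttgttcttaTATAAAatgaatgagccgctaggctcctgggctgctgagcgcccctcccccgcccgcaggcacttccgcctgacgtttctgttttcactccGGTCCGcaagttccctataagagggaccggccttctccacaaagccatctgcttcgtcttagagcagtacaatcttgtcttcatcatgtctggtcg
Hist4h4: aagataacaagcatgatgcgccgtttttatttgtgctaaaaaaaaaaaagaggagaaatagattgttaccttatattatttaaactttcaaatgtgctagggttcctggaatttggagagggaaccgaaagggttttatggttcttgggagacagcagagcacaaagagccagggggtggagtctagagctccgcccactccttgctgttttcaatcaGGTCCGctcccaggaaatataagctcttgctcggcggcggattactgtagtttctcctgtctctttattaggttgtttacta
Hist2h3c2: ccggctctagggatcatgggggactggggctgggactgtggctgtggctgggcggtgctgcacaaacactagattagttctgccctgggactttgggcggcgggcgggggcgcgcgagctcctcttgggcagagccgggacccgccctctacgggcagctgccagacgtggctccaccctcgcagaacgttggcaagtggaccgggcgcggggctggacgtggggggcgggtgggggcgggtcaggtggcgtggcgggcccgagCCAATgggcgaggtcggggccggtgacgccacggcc
Hist2h3c1: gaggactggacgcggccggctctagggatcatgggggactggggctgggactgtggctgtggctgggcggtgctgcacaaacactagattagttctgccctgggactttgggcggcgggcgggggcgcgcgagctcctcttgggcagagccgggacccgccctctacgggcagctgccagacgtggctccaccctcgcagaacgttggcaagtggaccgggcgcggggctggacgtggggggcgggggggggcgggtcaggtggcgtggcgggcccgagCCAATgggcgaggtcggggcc
Hist1h3b: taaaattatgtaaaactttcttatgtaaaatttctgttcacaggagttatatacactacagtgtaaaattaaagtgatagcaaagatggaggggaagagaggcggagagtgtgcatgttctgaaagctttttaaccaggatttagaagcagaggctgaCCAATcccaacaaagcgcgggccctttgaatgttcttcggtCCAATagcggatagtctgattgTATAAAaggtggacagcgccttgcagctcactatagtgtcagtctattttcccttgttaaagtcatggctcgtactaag
Hist2h2bb: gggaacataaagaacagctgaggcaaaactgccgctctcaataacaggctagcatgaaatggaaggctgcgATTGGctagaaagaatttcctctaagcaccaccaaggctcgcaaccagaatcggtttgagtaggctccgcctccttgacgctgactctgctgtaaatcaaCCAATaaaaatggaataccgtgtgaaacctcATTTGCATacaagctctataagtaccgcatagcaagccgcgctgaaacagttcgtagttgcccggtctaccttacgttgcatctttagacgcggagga

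The windows of Hist2h3c1 and Hist2h3c2 were 99.65% identical over 285 aligned bases. This likeness is of the start regions and says nothing of the probes. Hist2h3c1 had no UMI in any section. Some pairs share 1 start region in opposite directions, as Hist1h2ag and Hist1h2bj do over 252 bases. GGTCCG was found in 6 of 7 H4 windows and 1 of 10 H2B windows, against 8.39% of all 27025 windows. The octamer ATTTGCAT was found in 5 of 8 H2A and 5 of 10 H2B windows, against 1.75% of all. The H1 box AAACACA was found in 5 of 6 H1 windows and 3 others, against 7.14% of all, TATAAA in 22 of 37 members against 14.2%, and CCAAT in 33 of 37 against 37.9%. These counts take a match at any place in the window, so a TATAAA match need not be a working TATA box. It starts at -137 from the gene start in Hist1h4i and at -29 in Hist1h3b.

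Of the 42 members, 36 had a UMI in some section and 26 had enough for the whole-section fit. Hist1h2aa, Hist1h2ab, Hist1h2ac, Hist1h2ba, Hist1h3f and Hist2h3c1 were at 0 in all 4 sections, and the other 10 untested members had 1 to 30 UMI over the 4 sections. The 12 members with most UMI held 95.8% of the family's UMI. Levels of different genes are not set against each other here, since UMI per gene also depend on each gene's probes. The family as a whole stood at 1081 and 1329 CPM in the rNLS8 sections and 1202 and 1072 in the control sections, which overlap. Linker H1 genes summed to 477 and 595 in rNLS8 and 552 and 521 in control, and H2B genes to 388 and 481 in rNLS8 and 431 and 363 in control. H4 genes summed to 91.8 and 69.1 in rNLS8 and 99.1 and 80.1 in control. H2A genes, at 53.4 and 51.4 in rNLS8 against 41.4 and 42.8 in control, were the 1 class of 5 whose groups did not overlap. Most of that sum was Hist3h2a, at 45.2 and 40.9 in rNLS8 against 36 and 32.3 in control. Among all single genes tested, 38.3% had both rNLS8 sections above both control sections and 16.8% had both below. H3 genes stood at 71.3 and 132 in rNLS8 and 78.1 and 64.8 in control, which overlap.

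**Figure D1:**
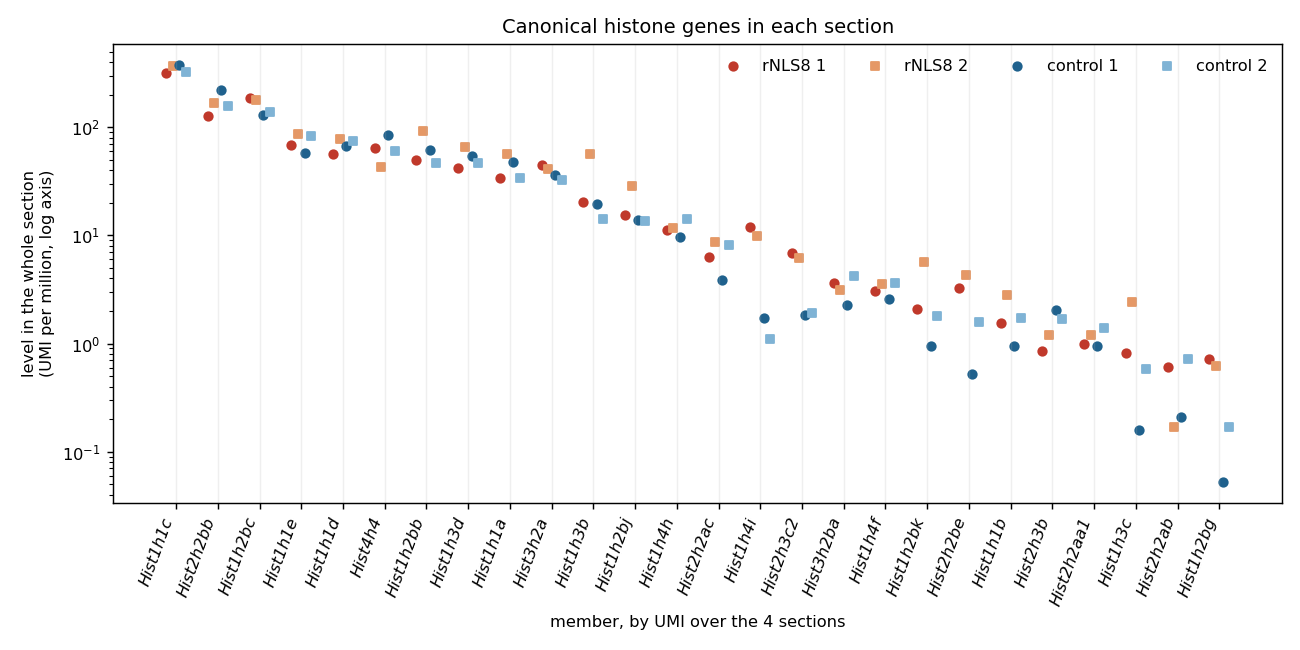
Level of the 26 tested members in each section, in CPM of all kept spots on a log axis, with members ordered by UMI over the 4 sections (the order also reflects each gene's probes). Circles are section 1 and squares section 2 of a group. Hist1h4i and Hist2h3c2 show the 2 rNLS8 sections well above the 2 control sections, whereas the members with most UMI mostly overlap.

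Summed over the family, the level was highest along the ventricle, at 3375 and 10180 CPM in the ventricle-lining spots of rNLS8 and 4339 and 3624 in those of control. Spots of the cluster led by Ccdc153, Tmem212 and Dnali1, genes of ciliated ependymal cells, numbered 68 and 42 in rNLS8 and 77 and 40 in control, and members had been left out of the genes used to cluster. With under 50 spots in 1 section of either group, these spots are described and not tested. Of the 26 members, 13 stood at least 2 times above the rest of their section in all 4 sections, against 4.13% of the 13444 tested genes. Those 13 include all 5 tested H1 genes, 4 H2B genes (Hist1h2bb, Hist1h2bj, Hist1h2bk and Hist2h2bb), 2 H3 genes (Hist1h3b and Hist1h3d) and 2 H4 genes (Hist1h4f and Hist1h4h).

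Hist1h3b, an H3 gene, had 238 and 1003 CPM in the ventricle-lining spots of rNLS8 and 288 and 263 in those of control. This was 19.6 and 31.7 times the rest of the section in rNLS8, and 25.9 and 30.7 times in control. It fell away within a few spots. At 1 step on the array grid from those spots it stood at 41.5 and 165 in rNLS8 and 73.7 and 42.4 in control, at 2 steps at 31.8 and 92.1 in rNLS8 and 33.3 and 19.6 in control, and at 6 or more steps at 10.5 and 27.1 in rNLS8 and 7.62 and 6.24 in control. All 4 sections showed this order, and rNLS8 section 2 was the highest at every distance. Hist1h2bk, an H2B gene, was 12.8 and 23.9 times higher than the rest of the section in rNLS8 and 20.6 and 15.4 times in control, over 75 UMI in all. Hist1h1a, Hist1h1b and Hist1h2bj were at least 7.82 times higher in all sections, over 860, 47 and 408 UMI in all.

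Among genes with broader signal the rise was smaller. Hist1h1c, a linker H1 gene, had 786 and 2346 CPM in the ventricle-lining spots of rNLS8 and 1275 and 940 in those of control, or 2.63 and 7.34 times the rest in rNLS8 and 3.65 and 3 times in control. Hist2h2bb reached 465 and 1528 in rNLS8 and 889 and 476 in control. Hist1h2bc was at most 1.49 times higher, and Hist3h2a ranged from 0.65 to 1.31 times the rest. Hist1h4i had 16 and 3 UMI there in rNLS8 and 0 and 2 in control, with no peak at the ventricle in the plot by distance. The summed list of S phase and proliferation genes was higher along the ventricle in all 4 sections. It stood at 647 and 1448 CPM in the ventricle-lining spots of rNLS8 and 455 and 481 in those of control. At 6 or more steps it stood at 215 and 245 in rNLS8 and 172 and 180 in control. Its part in the members' levels was not tested.

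**Figure D2:**
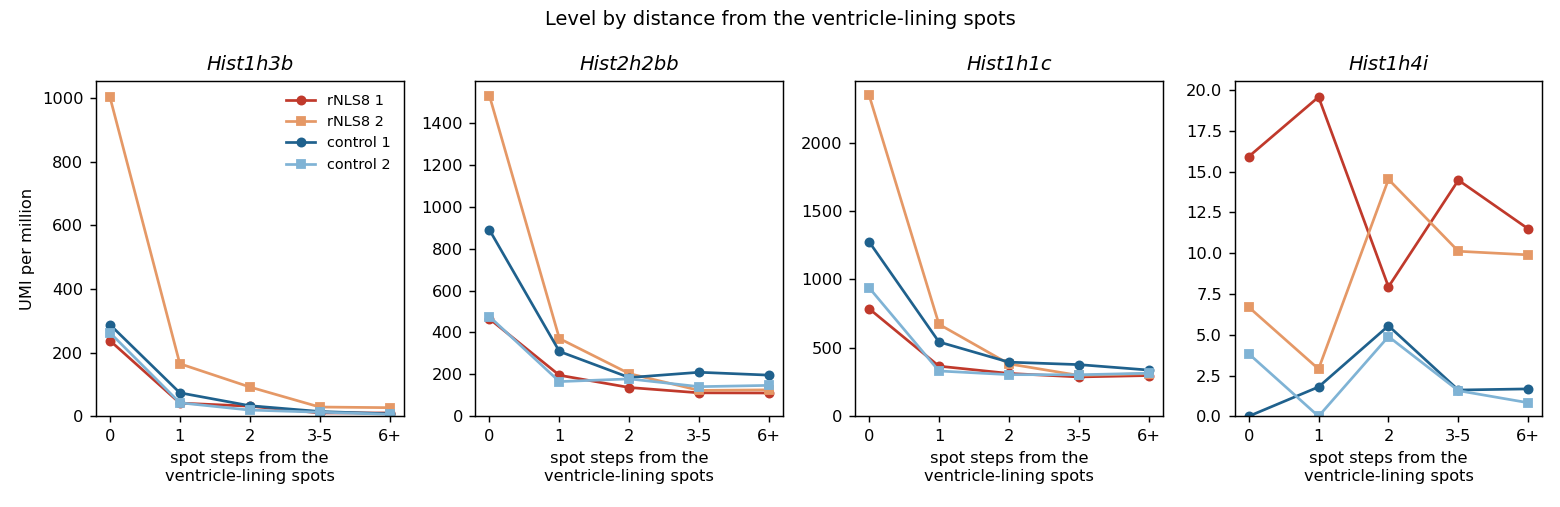
Level of Hist1h3b, Hist2h2bb, Hist1h1c and Hist1h4i, in CPM, against distance on the array grid from the ventricle-lining spots (0), in spot steps, with 1 line per section. Hist1h3b, Hist2h2bb and Hist1h1c are highest at 0 in all 4 sections and rNLS8 section 2 is highest there, while Hist1h4i rests on 0 to 17 UMI at 0 and 1 steps and has no such peak.

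**Figure D3:**
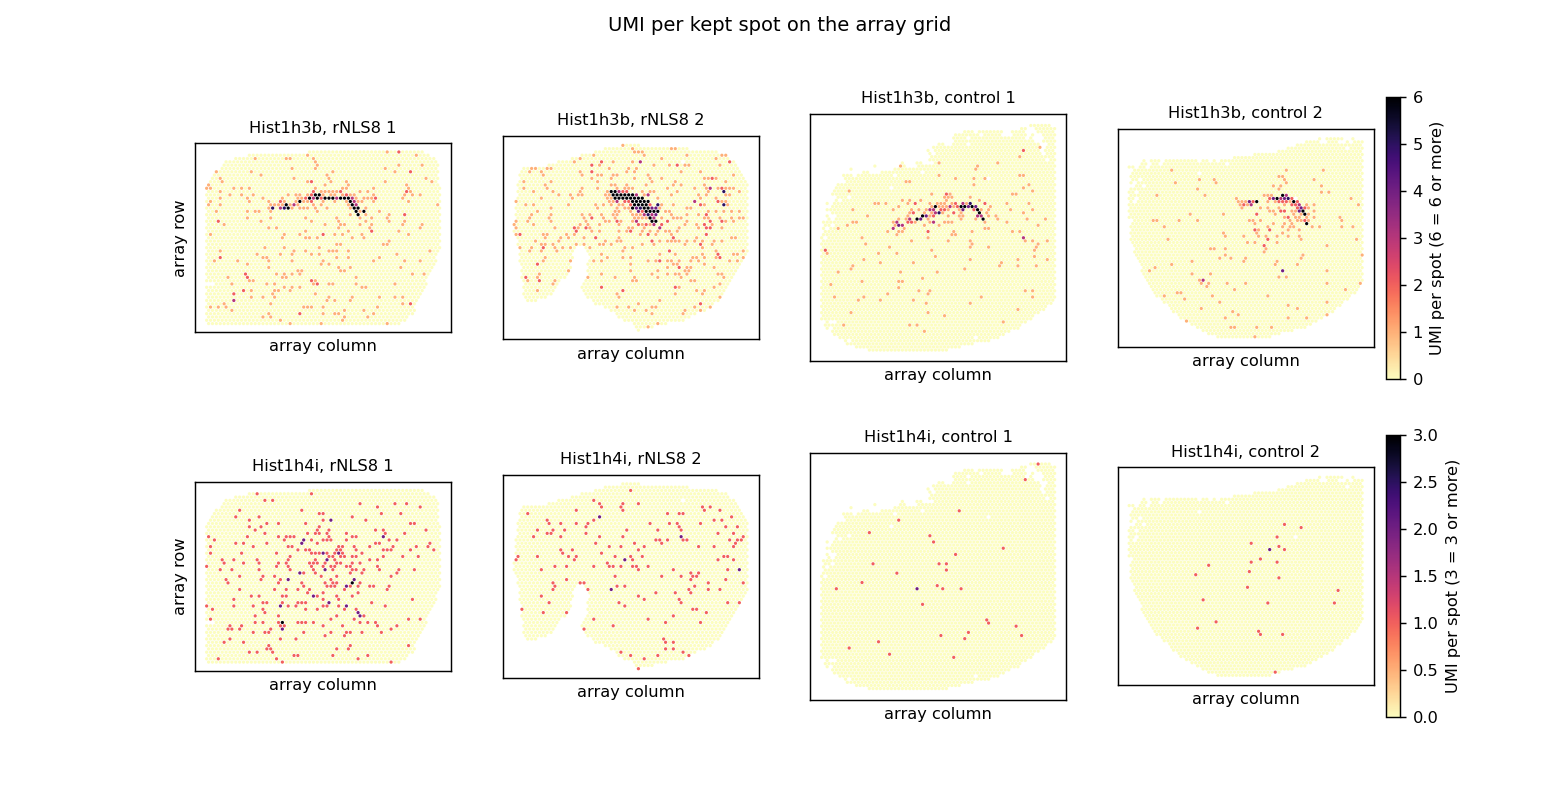
UMI per kept spot of Hist1h3b (top) and Hist1h4i (bottom) on the array grid of each section, rNLS8 sections left of control sections, with darker colour for more UMI and the scale capped at 6 and 3 UMI. Hist1h3b lines the ventricle in all 4 sections, and Hist1h4i is scattered through the rNLS8 sections and sparse in the control sections.

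The spatial score in the authors' deposited table, Moran's I, which is high where neighbouring spots have like values, was also high for Hist1h3b. It was 0.142 and 0.278 in rNLS8 and 0.168 and 0.145 in control in the authors' deposited table, above the percentile 95 of listed genes in every section (0.0829 and 0.0643 in rNLS8, 0.0934 and 0.0924 in control). Hist1h4i had 0.0232 and 0.0005 in rNLS8 and -0.0023 and 0.0009 in control in the authors' deposited table, where the median listed gene had 0.0094 and 0.0065 in rNLS8 and 0.0107 and 0.0116 in control.

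Between regions, tested over all genes with the section as a block and edgeR's quasi-likelihood test, some members were higher in fibre tracts and striatum than in cortex. In fibre tracts, the oligodendrocyte-rich white matter, 9 of 21 tested members were called higher than in cortex, 12 were not called and 0 were called lower, against 14.5% of all tested genes called higher and 16% called lower. The median log2 fold change was 0.37 over members and -0.01 over all genes. Hist1h3b had 33.5 and 57.6 CPM in the fibre tracts of rNLS8 and 34.3 and 23.6 in those of control, against 7.58 and 24.4 in the cortex of rNLS8 and 6.44 and 4.14 in that of control. It was higher in fibre tracts in every section, with a log2 fold change of 1.84 ± 0.188 (SE, adjusted p = 5.08e-11, edgeR). Hist1h2bb, an H2B gene, was higher by 0.82 ± 0.115 (adjusted p = 1.58e-07), Hist1h2bc by 0.59 ± 0.0949 (adjusted p = 2.23e-06) and Hist1h2bk by 2.21 ± 0.498 (adjusted p = 0.000449, 23 UMI in the fibre tracts of all sections). Hist1h2bj followed with 0.73 ± 0.2 (adjusted p = 0.0035).

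Part of the fibre tract spots lay beside the ventricle, 39 and 30 within 2 steps in rNLS8 and 43 and 32 in control. Without spots that near, a setting chosen after seeing the data, 5 of 20 members were called higher, against 12% of all genes in that fit: Hist1h3b at 1.05 (adjusted p = 6.48e-05), Hist1h2bk at 2.25, Hist1h2bc at 0.53, Hist1h1e at 0.42 and Hist1h2bb at 0.42. The calls of Hist4h4, Hist1h2bj, Hist1h1c and Hist1h1a were lost, at log2 fold changes of 0.18 (adjusted p = 0.377, edgeR), 0.48 (0.156), 0.12 (0.359) and 0.14 (0.637). Hist1h3b then stood at 18.3 and 36.1 CPM in the fibre tracts of rNLS8 and 21.4 and 16 in those of control, still above cortex in all 4 sections. Lists of oligodendrocyte precursor and oligodendrocyte genes were also high in fibre tracts. The precursor list summed to 1571 and 1297 there in rNLS8 and 1182 and 1537 in control, against 476 and 483 in the cortex of rNLS8 and 423 and 432 in that of control, and its part in the members' levels was not tested.

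The striatum had 11 of 21 members called higher than cortex, 10 not called and 0 called lower, against 16.5% of all genes called higher and 18.9% called lower. The median log2 fold change was 0.43 over members and 0 over all genes. Hist2h3c2 was higher by 1.03 ± 0.216 (SE, adjusted p = 0.00183, edgeR), Hist1h4i by 1 ± 0.179 (adjusted p = 0.000523), Hist1h3b by 0.83 ± 0.148 (adjusted p = 0.00053), Hist1h2bc by 0.72 ± 0.0867 (adjusted p = 1.61e-05) and Hist3h2a by 0.58 ± 0.0836 (adjusted p = 8.95e-05). Hist1h2bc had 247 and 230 CPM in the striatum of rNLS8 and 155 and 191 in that of control, against 146 and 163 in the cortex of rNLS8 and 97.7 and 87.5 in that of control. Striatum exceeded cortex within each section. The others called were Hist1h1c, Hist1h1d, Hist1h3d, Hist4h4, Hist1h4h and Hist1h2bb, at 0.29 to 0.51 on the log2 scale. Of these 11, the call of Hist1h2bb was lost without spots within 2 steps of the ventricle lining, at 0.1 (adjusted p = 0.406, edgeR).

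In meninges and vessels, 2 of 18 members were called higher than cortex and 0 lower, against 19.8% of all genes called higher and 19.0% called lower, so the members' share was below the background. The 2 were Hist1h1c, at 0.68 ± 0.0894 (SE, adjusted p = 9.49e-10, edgeR), and Hist1h2bc, at 0.42 ± 0.101 (adjusted p = 0.000409). Hist1h1c had 378 and 435 CPM there in rNLS8 and 569 and 479 in control, against 266 and 279 in the cortex of rNLS8 and 255 and 244 in that of control. Hist1h1c and Hist1h2bc were thus called higher than cortex in all 3 regions. The fibre tract call of Hist1h1c was lost, as given above, without spots near the ventricle lining. Without the library labelled rNLS8 replicate 1, the number of members called higher was 6 of 20 in fibre tracts, 12 of 20 in striatum and 2 of 18 in meninges and vessels, against 11.5%, 12.8% and 17.1% of all genes in those fits. The fibre tract calls lost were those of Hist4h4, Hist1h2bj and Hist1h1a, at 0.24, 0.64 and 0.32 on the log2 scale.

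**Figure D4:**
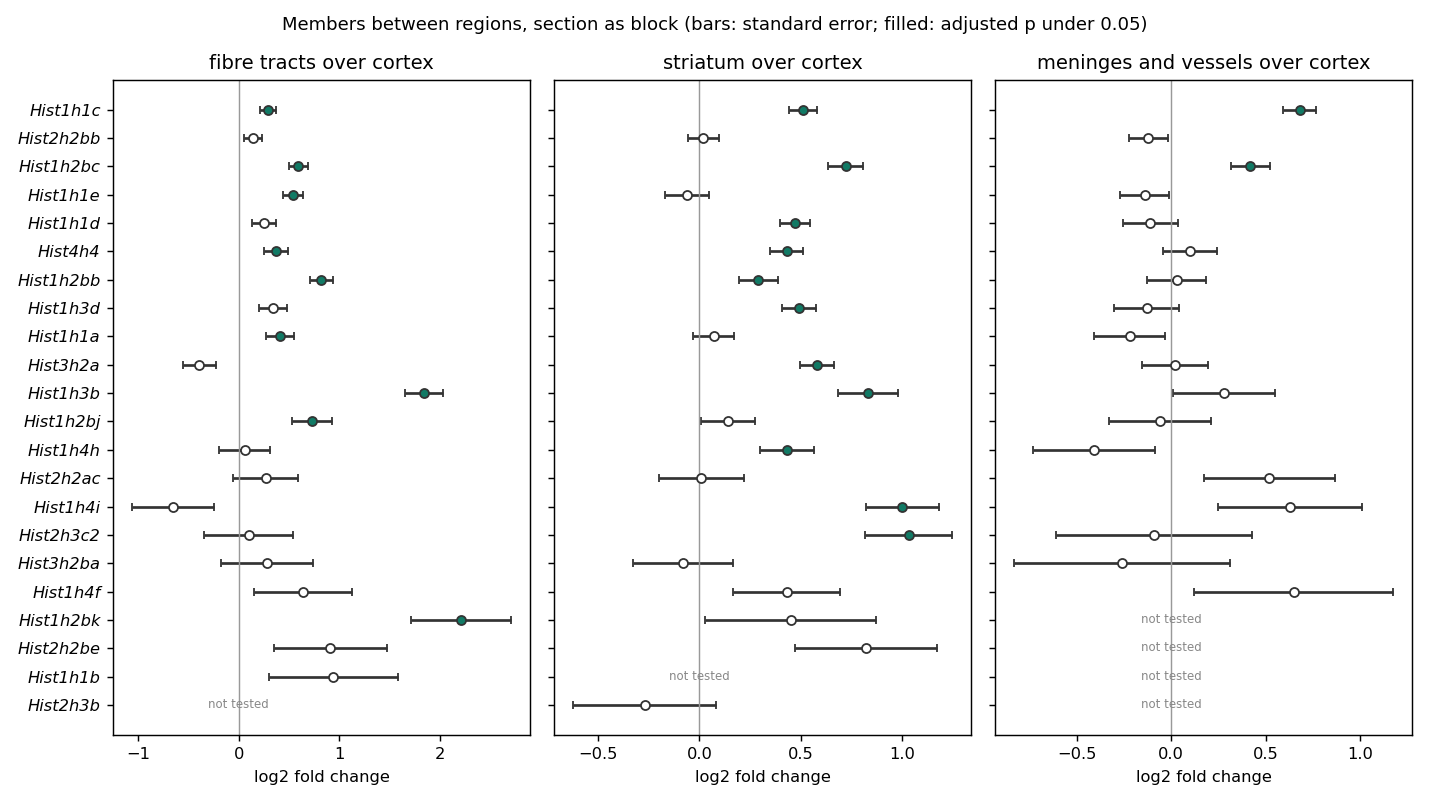
Log2 fold change of each tested member in fibre tracts, striatum, and meninges and vessels over cortex, with the section as a block. Bars are standard errors and filled points have an adjusted p under 0.05. All filled points lie above 0, and Hist1h3b and Hist1h2bk lie furthest right in fibre tracts.

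Between rNLS8 and control over the whole section, the 5 tested members with the highest log2 fold changes were Hist1h4i, Hist1h2bg, Hist1h3c, Hist2h2be and Hist2h3c2. Hist1h4i, an H4 gene, had 339 and 173 UMI in rNLS8 and 33 and 26 in control. This was 12.1 and 9.81 CPM in rNLS8 against 1.74 and 1.09 in control, and the groups did not overlap. Its log2 fold change was 2.83 ± 0.358 (SE, adjusted p = 0.122, edgeR), and its adjusted p was 0.0047 without rNLS8 replicate 1, 0.000719 without rNLS8 replicate 2, 0.136 without control replicate 1 and 0.032 without control replicate 2. Hist2h3c2, an H3 gene, had 6.92 and 6.13 CPM in rNLS8 against 1.84 and 1.93 in control, with a log2 fold change of 1.66 ± 0.289. Hist2h2be, an H2B gene, had 3.24 and 4.31 in rNLS8 against 0.526 and 1.59 in control, a log2 fold change of 1.69 ± 0.527. Hist1h2bg and Hist1h3c had log2 fold changes of 2.37 and 1.92 on 36 and 83 UMI in all, with 1 and 3 UMI in control section 1. Hist1h2bg reached the minimum level for the fit only in the rNLS8 sections. Of the 26 tested members 0 were called, and of all 13444 tested genes 0.0% were called by edgeR. At an unadjusted p under 0.05, 5 members and 15.6% of all genes passed. DESeq2 called Hist1h4i and Hist2h3c2, 2 members, and 526 genes, or 4.32% of those with an adjusted p. Without rNLS8 replicate 1, a setting chosen after seeing the data, DESeq2 gave Hist1h4i 2.62 (adjusted p = 0.0509) and Hist2h3c2 1.53 (adjusted p = 0.764).

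Members with the lowest fold changes were Hist2h3b at -1.01 ± 0.417 (SE), Hist4h4 at -0.56 ± 0.275 and Hist2h2bb at -0.49 ± 0.243, none called. Hist2h3b had 0.856 and 1.19 CPM in rNLS8 against 2.05 and 1.68 in control, and did not overlap. Hist4h4, an H4 gene that shares its group of copies with Hist1h4i, had 64.8 and 43.3 in rNLS8 against 84.7 and 60.4 in control, which overlap. Hist2h2ab at -0.31 and Hist2h2aa1 at -0.23 completed the 5 lowest, on 41 and 100 UMI. Over the 26 members 10 had both rNLS8 sections above both control sections and 1 had both below, against 38.3% and 16.8% of all tested genes. The median log2 fold change was 0.1 over members and 0.02 over all genes.

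The members with most UMI gave smaller differences. Hist1h2bc had 185 and 179 CPM in rNLS8 against 131 and 139 in control, which do not overlap, with a log2 fold change of 0.31 ± 0.129. Hist3h2a, an H2A gene, had 45.2 and 40.9 in rNLS8 against 36 and 32.3 in control, also without overlap, with 0.2 ± 0.164. Hist1h2bj had 15.5 and 28.4 in rNLS8 against 13.7 and 13.7 in control, without overlap. Hist1h3b had 20.3 and 56.3 in rNLS8 against 19.4 and 14.1 in control, and its log2 fold change of 1.04 was 0.15 without rNLS8 replicate 2 (adjusted p = 0.999, edgeR) and 1.6 without rNLS8 replicate 1 (adjusted p = 0.00473). Hist1h1c had 317 and 371 in rNLS8 against 377 and 327 in control, and Hist2h2bb 127 and 168 in rNLS8 against 221 and 156 in control. Hist1h1e had 68 and 86.5 in rNLS8 against 58.1 and 82.6 in control, and Hist1h1d 56.8 and 77.3 in rNLS8 against 67.7 and 74.7 in control. Hist1h1a stood at 33.7 and 57 in rNLS8 against 47.6 and 34.3 in control, Hist1h2bb at 49.4 and 91.9 in rNLS8 against 61.8 and 46.9 in control, and Hist1h3d at 42.4 and 65.8 in rNLS8 against 54.6 and 46.5 in control. In these 6 genes and Hist2h2bb the groups overlapped.

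In cortex, Hist1h4i was the only 1 of 20 tested members called, against 1.72% of all genes called. It had 9.17 and 8.72 CPM in rNLS8 against 0.871 and 0.614 in control, where the log2 fold change was 3.42 ± 0.423 (SE, adjusted p = 0.0233, edgeR). Without rNLS8 replicate 1 the log2 fold change was 3.38 (adjusted p = 0.0011). The cortex joins 3 clusters that the groups share unevenly: cluster 6, led by Cst7, Cxcl10 and Cd52, held 318 and 449 spots of rNLS8 and 29 and 32 of control, cluster 7 held 48 and 11 of rNLS8 and 437 and 308 of control, and cluster 2 held 324 and 299 of rNLS8 and 332 and 325 of control. In cluster 2 alone, a setting chosen after seeing the data, the log2 fold change of Hist1h4i was 2.64 (adjusted p = 0.0406, edgeR), and there without rNLS8 replicate 1 it was 2.92 (adjusted p = 0.123). Hist2h3c2 had 5.05 and 5.6 in rNLS8 against 1.22 and 0.921 in control, a log2 fold change of 2.15 ± 0.441 (adjusted p = 0.0587), and Hist2h2be had 2.79 and 2.18 in rNLS8 against 0.348 and 0.767 in control. Hist2h2bb had 109 and 121 in rNLS8 against 171 and 146 in control, without overlap, and Hist1h2bc 146 and 163 in rNLS8 against 97.7 and 87.5 in control. Of the 20 members, 7 had both rNLS8 sections above and 2 both below control, against 41.2% and 17.4% of all genes. Among the 7 were Hist1h4i, Hist2h3c2 and Hist2h2be. These genes had 2 to 7 UMI in each control section of the cortex. They reached the minimum level for the fit only in the rNLS8 sections.

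The marker list of microglia was higher in the cortex of rNLS8 than in that of control. It summed to 1383 and 2207 CPM in rNLS8 against 453 and 609 in control, with 10 of its 17 tested genes called higher and UMI in the cortex for all 18 listed genes. Neuronal markers summed to 12170 and 11660 in rNLS8 against 17250 and 16640 in control, with 2 of 14 called lower. Astrocyte markers ranged from 6245 to 7322 in rNLS8 and from 5160 to 5919 in control, with 1 of 13 called higher. Leukocyte markers ranged from 49.1 to 62.7 in rNLS8 and from 49.8 to 50.3 in control. Of these 20 genes 9 were at 0, among them Cd8a, Cd3g and Ms4a1. Most of the leukocyte sum was Trbc2, at 36 and 43.8 in rNLS8 against 43.4 and 45.1 in control. The other 2 of its 3 tested genes were higher in rNLS8, without overlap. Ptprc had 9.31 and 14.2 in rNLS8 against 3.66 and 3.22 in control. Lck had 1.73 and 2.65 in rNLS8 against 0.697 and 0.767 in control, on 39 UMI in all. None of the 3 was called. The part of neurons, astrocytes and leukocytes in the members' levels was not tested. For microglia, cortical spots at or above percentile 75 of their section by the microglia list were set against the other cortical spots of that section, a comparison chosen after seeing the data. Of 18 members 1, Hist1h3b, was higher (log2 fold change 0.95 ± 0.205, adjusted p = 0.00627, edgeR) and 0 were lower, against 2.3% of all genes called higher and 0.439% called lower. Hist1h3b had 12.2 and 44.7 CPM in microglia-rich spots of rNLS8 and 6.83 and 4.6 in those of control, against 6.21 and 17.8 in the other spots of rNLS8 and 6.33 and 4 in those of control. The call was lost without rNLS8 replicate 1 (0.95, adjusted p = 0.0984) and without rNLS8 replicate 2 (0.53, adjusted p = 0.695). Hist1h4i had -0.31 ± 0.322 in this comparison and Hist2h3c2 0.19 ± 0.399.

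In striatum, 2 of 20 members were called, against 0.592% of all genes. Hist1h4i had 19.4 and 15.9 CPM in rNLS8 against 2 and 1.56 in control, a log2 fold change of 3.22 ± 0.348 (SE, adjusted p = 0.013, edgeR). Hist2h3c2 had 11.1 and 10.7 in rNLS8 against 1.82 and 2.63 in control, a log2 fold change of 2.15 ± 0.359 (adjusted p = 0.0448). Without rNLS8 replicate 1 the log2 fold change was 3.04 (adjusted p = 0.0568) for Hist1h4i and 2.11 (adjusted p = 0.261) for Hist2h3c2, and without rNLS8 replicate 2 that of Hist2h3c2 was 2.19 (adjusted p = 0.207). The striatum joins 2 clusters that the sections share unevenly: cluster 1 held 459 and 77 spots of rNLS8 and 522 and 489 of control, and cluster 5 held 289 and 299 of rNLS8 and 207 and 208 of control. In cluster 5 alone, a setting chosen after seeing the data, neither was called, at 3.35 (adjusted p = 0.0934, edgeR) for Hist1h4i and 1.85 (adjusted p = 0.226) for Hist2h3c2. The split of striatum over these clusters also enters its comparison with cortex, where its part was not tested. Hist3h2a had 56.7 and 57 in rNLS8 against 48 and 39 in control, which do not overlap.

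No member was called in the other 4 regions, where 10 to 16 members were tested: 0.00933% of all genes were called in basal forebrain and hypothalamus, 0.225% in claustrum and endopiriform nucleus, 0.344% in fibre tracts and 0.435% in meninges and vessels. Hist1h4i had 8.87 and 10.2 CPM in the basal forebrain and hypothalamus of rNLS8 against 1.55 and 0.871 in those of control (log2 fold change 2.81 ± 0.658), and 6.04 and 7.78 in the claustrum of rNLS8 against 1 and 1.5 in that of control (2.3 ± 0.586). In both regions it had 2 to 4 UMI in each control section and reached the minimum level for the fit only in the rNLS8 sections. In meninges it overlapped, at 10.4 and 13.4 in rNLS8 and 11.1 and 1.55 in control, on 27 UMI in all. Hist2h3c2 had both rNLS8 sections above both control sections in all 6 named regions, on 11 to 157 UMI each, and Hist1h4i, Hist2h2be and Hist3h2a in 5 of 6. Of all genes tested over the whole section, 3.7% had this in all 6 and 9.88% in at least 5. Some of these values rest on few UMI, with 0 or 1 for Hist2h3c2 in a control section of the claustrum, fibre tracts and meninges. In basal forebrain and hypothalamus Hist2h3c2 had 12 and 2 UMI in rNLS8 against 7 and 4 in control. Hist2h2bb had both rNLS8 sections below both control sections in 4 of 6 and overlapped in the other 2, where 7.87% of all genes were below in at least 4, with log2 fold changes between -0.79 and -0.44 in the 6. Hist1h4i and Hist2h3c2 were both at log2 fold changes above 2 in cortex and striatum. A test of whether the rNLS8 difference in cortex differed from that in all other spots called 0 of 24 members, against 1.11% of all genes, with 0.7 ± 0.505 for Hist1h4i and 0.59 ± 0.481 for Hist2h3c2.

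**Figure D5:**
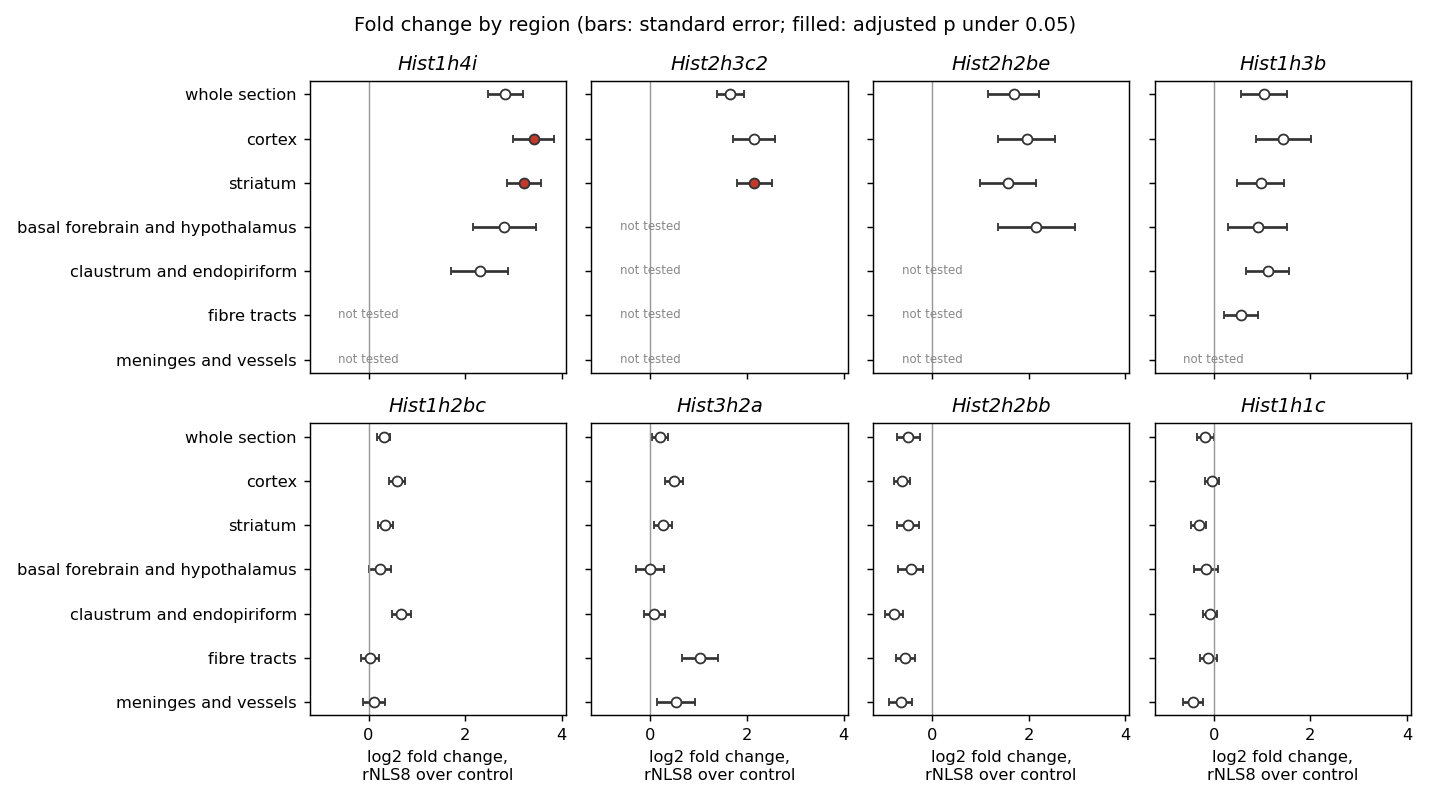
Log2 fold change of rNLS8 over control for 8 members in the whole section and in 6 named regions, with standard errors as bars and filled points for an adjusted p under 0.05. Hist1h4i has points above 2 wherever it was tested, which excludes fibre tracts and meninges and vessels. In cortex, basal forebrain and hypothalamus, and claustrum it reached the minimum level for the fit only in the rNLS8 sections. Hist2h2bb has points below 0 in all 7, and Hist1h1c has points below 0 in all 7. The cortex point of Hist1h1c, at -0.03 ± 0.147, lies near 0, and its CPM there was higher in both rNLS8 sections.

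Copies were also summed, since the split of UMI among them is uncertain. The 8 listed H4 genes together had 91.8 and 69.1 CPM in the whole rNLS8 sections against 99.1 and 80.1 in control (log2 fold change -0.29 ± 0.213), and 75 and 58.4 in the cortex of rNLS8 against 71.4 and 66.6 in that of control (-0.2 ± 0.183). Hist4h4 held most of the H4 sum, and sums also depend on each gene's probes. In cortex Hist4h4 had 52.5 and 36.3 in rNLS8 against 61.5 and 48.3 in control, which overlap. Whether UMI passed between Hist1h4i and the other H4 copies was not tested. The 7 H3 copies together had 71.3 and 132 in rNLS8 against 78.1 and 64.8 in control (0.37 ± 0.3). The group of Hist1h2bc, Hist1h2be and Hist1h2bg had 147 and 164 in the cortex of rNLS8 against 97.7 and 87.5 in that of control (0.59 ± 0.163, adjusted p = 0.104).

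Other genes of histone supply were described by lists. Of 11 tested replication-independent histone variants 0 were called over the whole section, with a median log2 fold change of -0.04. H2afz, which encodes the variant H2A.Z, had 136 and 135 CPM in rNLS8 against 187 and 198 in control (-0.63 ± 0.128, adjusted p = 0.173), and H2afy, encoding macroH2A, had 215 and 206 in rNLS8 against 298 and 257 in control (-0.53 ± 0.159). Both had non-overlapping sections. Of 20 genes for making and processing histone mRNA, with a median of 0.01, and of 22 histone chaperones and partners, with a median of 0.05, 0 were called. Nasp, an H1 and H3-H4 chaperone, had 11.3 and 11.52 in rNLS8 against 4.53 and 8.51 in control. Nap1l1, from the same list, went the other way, at 369 and 358 in rNLS8 against 480 and 476 in control (-0.53 ± 0.139). Ncbp1, a cap-binding protein, had 73.9 and 71.5 in rNLS8 against 119 and 95.7 in control. Casp8ap2, from the mRNA list, had 7.74 and 8.74 in rNLS8 against 3.42 and 6.41 in control (0.62 ± 0.332). The S phase and proliferation list had a median of 0.52 over 26 tested genes, with 0 called, and summed to 233 and 282 in rNLS8 against 183 and 189 in control. Cdk1, the mitotic kinase, had 3.96 and 6.69 in rNLS8 against 1.95 and 1.84 in control (1.35 ± 0.372, adjusted p = 0.215, edgeR). Ccne1, from the same list, had 25.2 and 24.2 in rNLS8 against 27.8 and 22.7 in control (-0.16 ± 0.19). In cortex 0 genes of these 4 lists were called, and the S phase list had a median of 0.62 over 24 genes.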

How the data were processed

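Visium spatial expression of paraffin-embedded mouse brain sections was deposited as raw UMI counts per gene and spot. The build was mm10 per the submitters' processing notes, and Space Ranger 2.1.0 made the counts per the file headers. Moran's I per gene, a score, was also deposited, with p-values and a scaled signal that were not used. The probe set was not given in the sources used here.

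Spots with at least 500 UMI were kept, leaving 3031 and 2655 in rNLS8 and 3810 and 3306 in control. They were clustered together in scanpy 1.11.5 with leidenalg 0.10.2, on 2000 variable genes of the control sections, 30 principal components, 15 neighbours and resolution 1, centred within each section. Left out of the clustering were 170 genes: the members and the histone supply, S phase, microglia and leukocyte lists. Taking variable genes from the control sections was decided after a clustering on all sections had split the cortex by group. Clusters were named by region markers, and a region needed 50 spots per section to be tested.

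Raw UMI were summed per section and region and fitted across all genes with edgeR 4.0.16 (quasi-likelihood, TMM, filterByExpr, R 4.3.3), as rNLS8 against control, or between regions with the section as a block. Calls are at a Benjamini-Hochberg adjusted p under 0.05. DESeq2 1.42.0, totals without TMM, no filter, copies summed, the replicate number as a block, other resolutions, all spots and leaving out each section were tried. Groups of copies came from RefSeq synonym lists, since no protein table was used here. The named members are the 12 with most UMI, the 5 highest and 5 lowest fold changes over the whole section, every member called and the 5 largest calls per region contrast. The members, gene lists and tests were chosen with earlier results of these data known.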

Additional observations from a re-analysis of the deposited data

How the results depend on the processing

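The number of sections, 2 per group, and counts of 10 to 40 UMI per region for many members limit these values. The cortex over all spots was not run, because spots under the UMI minimum have no cluster.

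Members called over the whole section, 0 as given, were 2 with DESeq2 (4.32% of all genes called), 1 with DESeq2 without rNLS8 replicate 1 (1.47%), 2 without the filter on low counts (1.43%), 1 with the replicate number as a block (0.58%) and 0 to 3 with each section left out (0.0144% to 13.5%), which assumes that the lone section varies like the other group. In cortex, 1 as given (1.72%), they were 2 with DESeq2 (6.43%), 2 without the filter (5.48%), 3 with the replicate block (8.43%), 0 with copies summed (1.69%), 0 in cluster 2 without rNLS8 replicate 1 (1.43%) and 1 to 4 with a section left out (1.04% to 28.1%). The highest shares came without control replicate 2. In striatum, 2 as given (0.592%), they were 1 without TMM (0.403%), 0 in cluster 5 alone (0.13%) and 0 to 3 with a section left out (0.103% to 10.1%). With a section left out they were 0 to 1 in claustrum (0.132% to 6.15%), 0 to 2 in meninges (0% to 6.65%), 0 to 1 for the difference between cortex and other spots (0.0152% to 2.46%) and 0 to 1 for microglia-rich spots (0.836% to 2.92%), where 1 was given. Members higher in fibre tracts than in cortex, 9 as given (14.5% of all genes higher), were 16 at Leiden resolution 0.6 (16.9%) and 5 without spots near the ventricle lining (12%), and in meninges, 2 as given (19.8%), 4 at resolution 0.6 (21.3%). Weighting the regions equally moved the log2 ratio of the mean levels of Hist1h4i to 2.22, against 2.95 over the whole section. The replicate numbers did not pair the sections (correlation of deviations -0.0132 over 13444 genes).

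Uncalled members changed sign as follows, and the cause was not tested. Over the 4 fits with a section left out, whole-section values ran up to 0.21 for Hist1h1e, 0.61 for Hist1h2bb and 0.33 for Hist1h1a, and down to -0.38 for Hist1h3d, -1.56 for Hist2h2ab and -0.42 for Hist2h2aa1, and in cortex down to -0.14 for Hist1h1c and -0.39 for Hist1h1a and up to 0.53 for Hist1h2bj. Over the whole section Hist1h1e, at 0.01, had -0.16 without rNLS8 replicate 2, -0.18 without control replicate 1, -0.01 with DESeq2 and -0.1 without ventricle-lining spots. Hist1h2bb, at 0.24, had -0.26 without rNLS8 replicate 2, -0.01 without control replicate 2 and -0.02 without ventricle-lining spots. Hist1h1a, at 0.01, had -0.41 without rNLS8 replicate 2, -0.27 without control replicate 2, -0.02 with DESeq2, -0.01 with the replicate block and -0.19 without ventricle-lining spots. Hist1h3d, at -0.04, had 0.1 without TMM, 0.24 without rNLS8 replicate 1, 0.21 with DESeq2 without that section and 0.14 without control replicate 1. Hist2h2ab had 0.26 without rNLS8 replicate 2 and 0.78 without control replicate 2, where Hist2h2aa1 had 0.01. In cortex Hist1h1c, at -0.03, had 0.13 without TMM, 0.01 without rNLS8 replicate 1, 0.05 without control replicate 1 and 0.01 in cluster 2 alone. There Hist1h2bb had -0.23 and Hist1h2bj -0.22 without rNLS8 replicate 2, Hist1h2bb -0.12 without control replicate 2, both -0.09 and -0.07 in cluster 2 alone, and Hist1h1a 0.01 without rNLS8 replicate 1. Of 636 single-gene values under another setting 556 kept their direction and side of the threshold.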
